A study of Mus musculus with 3 samples.

Results

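Chemokines are small secreted proteins that steer leukocytes through receptors coupled to G proteins. The 6 chemokine ligand genes described here, Ccl3, Ccl4, Ccl5, Ccl6, Ccl9 and Cxcl2, were chosen by name from the 31053 genes of the count matrix. The rule holds no measured value, but the genes were chosen with earlier results of these data known. All 6 held counts. Their transcripts were counted in leukocytes from the blood of C57/BL6J mice by droplet single-cell RNA sequencing. Per the labels there were 3 groups with 1 library each, a control group (Con, 0 h) and groups labelled SD24h and SD48h, where SD is sleep deprivation. Each library held the pooled leukocytes of 3 mice after lysis of red cells, so the spread between mice could not be measured. The labels state neither sex nor age, and a sleep restriction condition named in the series text was not analysed here.

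Each barcode of the matrix ends in 1, 2 or 3, and which group an ending belongs to could not be read from the labels. The endings are therefore called library 1, 2 and 3, none is taken as the control, no order in time is read from them, and no p-value is given. Every interval below is an exact 95% interval that covers counting error only, over unique molecular identifiers (UMIs) or cells of 1 library.

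CCL3 and CCL5 signal through the receptor CCR1. NK cells and activated T cells are known sources of CCL3, CCL4 and CCL5, and memory T cells keep Ccl5 transcripts at rest. CCL6 and CCL9 are rodent ligands of CCR1 made by myeloid cells. CXCL2 draws neutrophils through CXCR2 and is switched on quickly when neutrophils or macrophages are stimulated, a response in which the transcription factor NF-kappaB and the decay of the message both take part.

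Of the 6 genes, 5 lie in 1 cluster on chromosome 11 and Cxcl2 lies on chromosome 5 (GRCm38, GENCODE M21). Ccl5 spans chr11:83525778-83530518, Ccl9 chr11:83572919-83578636, Ccl6 chr11:83587882-83593087 and Ccl3 chr11:83647844-83649355, all on the minus strand. Ccl4, on the plus strand, spans chr11:83662584-83664683. Cxcl2 spans chr5:90903871-90905938 on the plus strand. All are protein-coding, with 3 exons in Ccl3, Ccl4 and Ccl5 and 4 exons in Ccl6, Ccl9 and Cxcl2. Ccl9 and Ccl6 are the closest pair, with 9245 bases between them, and Ccl3 and Ccl4 stand head to head with 13228 bases between them.

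The bases just upstream of the start are shown for 3 genes that differed in the cells that held them: Cxcl2 (found in neutrophil-like cells), Ccl9 (monocyte-like cells) and Ccl6 (both). RefSeq's promoter table on GRCm38.p6 held 4 of the 6 genes, these 3 and Ccl3. Ccl4 and Ccl5 are named only. Sequences run 5′ to 3′ on the gene's strand, and capitals mark matches, on either strand, to short words for 4 factors or elements, spelled out after the sequences.
Cxcl2 (chr5:90903649-90903870, plus strand, 222 bases, ending where the GENCODE gene begins): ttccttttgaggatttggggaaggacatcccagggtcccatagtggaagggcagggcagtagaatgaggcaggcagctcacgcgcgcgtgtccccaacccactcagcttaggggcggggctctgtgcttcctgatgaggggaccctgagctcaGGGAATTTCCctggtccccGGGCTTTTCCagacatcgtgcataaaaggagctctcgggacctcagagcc
Ccl9 (chr11:83578637-83578886, minus strand, 250 bases): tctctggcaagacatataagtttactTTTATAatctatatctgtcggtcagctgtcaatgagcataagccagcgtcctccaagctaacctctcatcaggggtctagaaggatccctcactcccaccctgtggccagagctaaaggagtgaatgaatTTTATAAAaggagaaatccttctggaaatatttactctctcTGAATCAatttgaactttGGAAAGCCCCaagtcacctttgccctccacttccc
Ccl6 (chr11:83593088-83593337, minus strand, 250 bases): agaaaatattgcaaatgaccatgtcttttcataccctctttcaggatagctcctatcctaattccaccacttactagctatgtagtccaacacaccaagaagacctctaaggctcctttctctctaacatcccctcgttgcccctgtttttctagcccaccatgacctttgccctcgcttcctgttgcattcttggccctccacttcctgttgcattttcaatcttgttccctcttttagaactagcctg
The Cxcl2 stretch held 2 NF-kappaB words, GGGAATTTCC at 97 to 88 and GGGCTTTTCC at 78 to 69 bases before the RefSeq start. The Ccl9 stretch held 1 NF-kappaB word on the other strand, GGAAAGCCCC at 35 to 26 bases before the start, and 1 AP-1 word, TGAATCA at 53 to 47. It also held 3 matches to the TATA word, of which 2 overlap. Ccl6 and Ccl3 held none of the 4 words in this window. The NF-kappaB word searched was GGG, any 2 bases and then TTTCC, and 1.40% of 27025 promoters of the same length held it. The AP-1 word was TGANTCA, held by 6.87% of these promoters. The word for C/EBP, a family of myeloid transcription factors, was TTGCNNAA, held by 9.55%. The TATA box word, which marks some core promoters, was TATAAA and was held by 12.97%. Ccl6 and Ccl9 shared an unbroken stretch of 13 bases, GCCCTCCACTTCC, which began 55 bases before the Ccl6 start and 14 before the Ccl9 start. A match is a run of letters and not a shown binding site.

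Libraries 1, 2 and 3 held 8815, 6648 and 6741 barcodes. After filters on genes, mitochondrial UMIs and doublets, 6864, 5775 and 5578 cells were kept, with a median of 4181, 3743 and 4713.5 UMIs. Clusters were named from marker genes that contain no chemokine ligand, and the ending "-like" says that the name rests on RNA. Neutrophil-like cells numbered 542, 3242 and 1987 in libraries 1, 2 and 3, monocyte-like cells 404, 416 and 516, and NK-like cells 296, 82 and 156. B-like cells numbered 3775, 1363 and 1906, T-like cells 1217, 522 and 808, and erythroid-like cells 151, 64 and 76. In neutrophil-, monocyte-, B-, T- and NK-like cells each marker was higher than in the other cells of the same library, and in erythroid-like cells 9 of 10 were. Between 17 and 23 barcodes were shared by any pair of libraries.

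The makeup of the neutrophil-like class differed between libraries. A cluster led by Jaml and Lst1 held 531 of its cells in library 1, 55 in library 2 and 32 in library 3 at the clustering resolution that set the classes. Sub-classes and clusters within a class come from a finer resolution, at which the Jaml-led cluster held 532, 30 and 1 cells. Clusters led by Fgl2 and Il1rap and by Mmp8 and Wfdc21 held most of library 2 (1105 and 1146 cells), and a cluster led by Prok2 and Ifitm6 held 1022 cells of library 3. The median UMI count of a neutrophil-like cell was 2746.5, 3215.5 and 5139. Platelet messages were highest in library 1: the 10 platelet markers, none of them at 0, summed to 9247, 2765 and 2506 CPM in neutrophil-like cells, beside 3416, 1510 and 1810 CPM in B-like cells. Under a stricter cell filter a cluster led by Cd101 and the platelet gene Ppbp, with 495 cells of library 1, met 10 of 18 neutrophil and 8 of 10 platelet markers and was left unnamed. Its leading genes also held Cd101 and Jaml, both from the mature neutrophil list, which the naming of classes did not count. Of the 542 neutrophil-like cells of library 1, 522 passed that filter, 16 of these kept the name and 502 were unnamed. In library 2 the name was kept by 2690 of 3099 such cells, and in library 3 by 1452 of 1898. The name neutrophil-like is thus less certain in library 1 than in the other libraries, and the part of platelet messages in the values of library 1 was not tested. Every comparison of neutrophil-like cells between libraries below carries these differences.

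Levels are given as CPM, a gene's UMIs scaled to 1000000 UMIs summed over the cells of that class in that library. The class that led was the same in all 3 libraries, with the ratio to the next class above 1 over its whole interval, for 5 of the 6 genes. NK-like cells led for Ccl3, Ccl4 and Ccl5, neutrophil-like cells for Ccl6 and monocyte-like cells for Ccl9. By the same rule a leading class was found for 20.2% of 13186 measured genes, by class for 3.34% in NK-, 5.18% in neutrophil-, 5.67% in monocyte-, 3.19% in B-, 2.42% in T- and 0.372% in erythroid-like cells. Cxcl2 was highest in neutrophil-like cells too, but library 1 held 1 UMI of it in all kept cells.

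**Figure D1:**
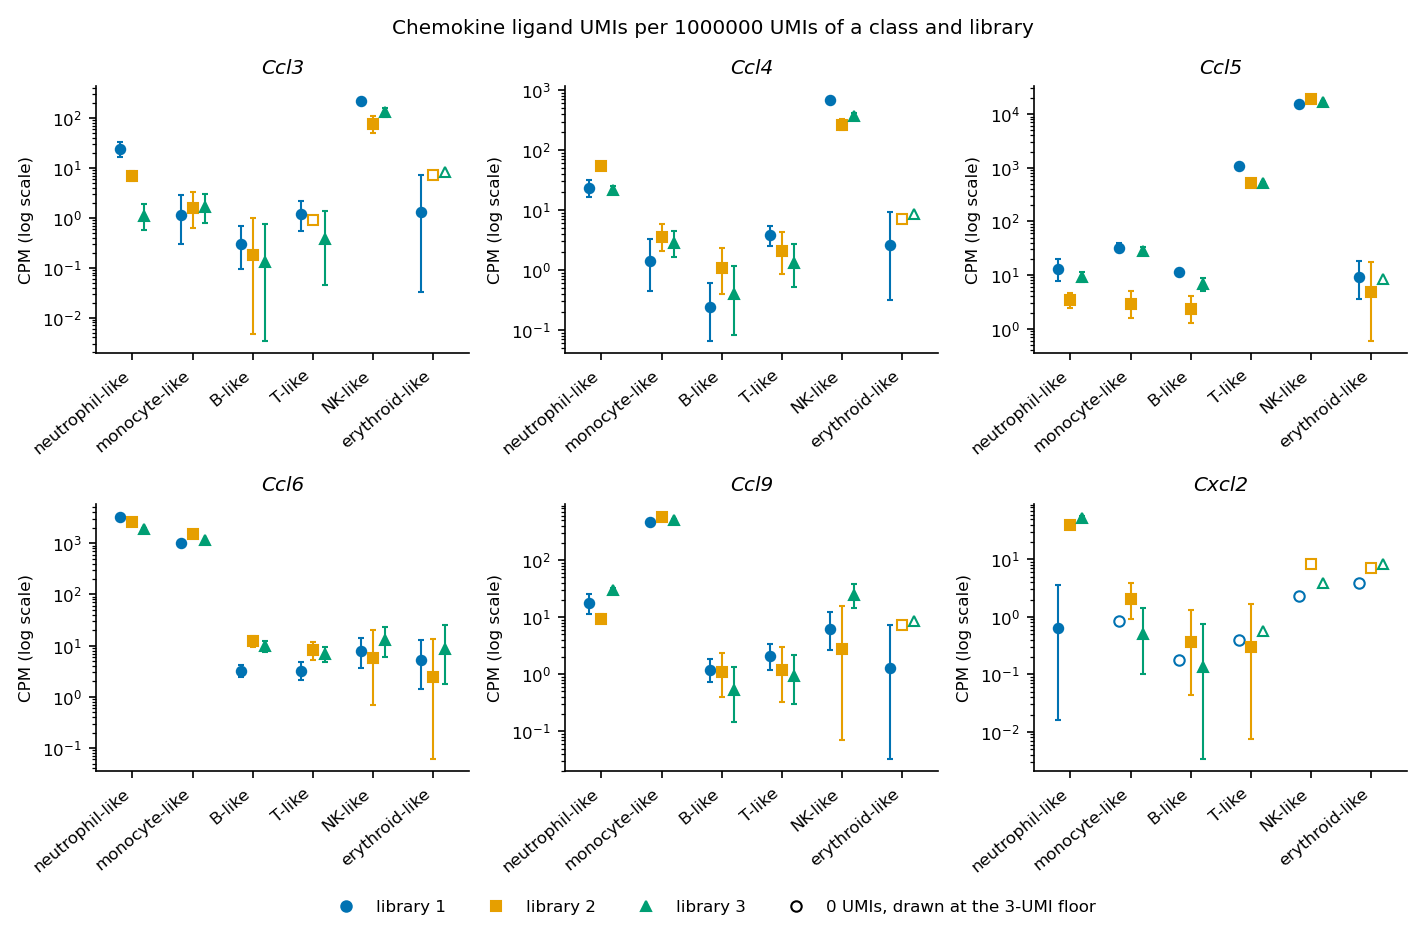
CPM (log axis) of each gene by cell class, with 1 symbol per library, bars for exact 95% Poisson intervals and open symbols at the 3-UMI floor where no UMI was counted. NK-like cells stand highest for Ccl3, Ccl4 and Ccl5, neutrophil-like cells for Ccl6 and monocyte-like cells for Ccl9, while Cxcl2 in neutrophil-like cells is at 0.644 CPM in library 1 against 39.5 and 52.2 CPM in libraries 2 and 3.

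Ccl5 marked almost every NK-like cell. Its level there was 15408 CPM in library 1 (interval 15194 to 15624), 19349.8 in library 2 and 16940.5 in library 3. The highest library was 1.26 times the lowest (1.22 to 1.29). A UMI of Ccl5 was found in 100% of NK-like cells in libraries 1 and 2 and in 99.4% in library 3 (155 of 156 cells). B-like cells, taken as a measure of free RNA, had a UMI in 4.69%, 0.807% and 2.47% of cells at median depths of 3915, 3779 and 3584.5 UMIs, beside 4005, 4283.5 and 4620 in NK-like cells. The median NK-like cell held 57, 69 and 79 UMIs of Ccl5. Thinned to 1000 UMIs per cell, 100%, 100% and 99.4% of NK-like cells still had one.

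T-like cells came next for Ccl5, at 1071, 509.9 and 514 CPM, and a small set of them held 94.7%, 98.6% and 82.1% of that class's Ccl5 UMIs. In effector or memory T-like cells, a cluster marked by Cxcr3, Il2rb and Eomes (176, 39 and 74 cells, of which 161, 31 and 66 lay in the T-like class), the level was 5205, 5092 and 3489 CPM. The cluster itself held 183 cells of library 1, and the 7 basophil-like cells described below were taken out of it. That cluster also met Cd8a, Ly6c2 and Nkg7 of the CD8 T list and Ikzf2 of the regulatory T list. Cd8b1 and Cd8a were among its leading genes, so it is not a set without CD8 cells. CD8 T-like cells stood at 143, 17.0 and 192 CPM and gave 17.5% of the class's Ccl5 in library 3. CD4 T-like cells stood at 10.3, 1.19 and 5.92 CPM, within or near the range of B-like cells (11.4, 2.35 and 6.74 CPM). The order NK-like, effector or memory T-like, CD8 T-like, CD4 T-like held in each library, with every ratio between neighbours above 1 over its interval. NK-like cells exceeded effector or memory T-like cells 2.96-, 3.80- and 4.85-fold.

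Within the effector or memory T-like set Ccl5 was uneven from cell to cell. Its quartiles were 1, 17.5 and 58 UMIs per cell in library 1, 0, 14 and 66 in library 2, and 0, 11 and 33.25 in library 3. Cells with at least 10 UMIs made up 58.5% (50.9 to 65.9), 53.8% (37.2 to 69.9) and 52.7% (40.7 to 64.4) of the set and held 98.2% to 98.5% of its Ccl5. The same bound was passed by 98.3%, 97.6% and 97.4% of NK-like cells. Among CD8 T-like cells 8 of 427, 0 of 182 and 7 of 340 passed it, and in libraries 1 and 3 those few cells held 75.9% and 88.1% of the Ccl5 UMIs. The level of CD8 T-like cells in libraries 1 and 3 thus rested on fewer than 10 cells in each.

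**Figure D2:**
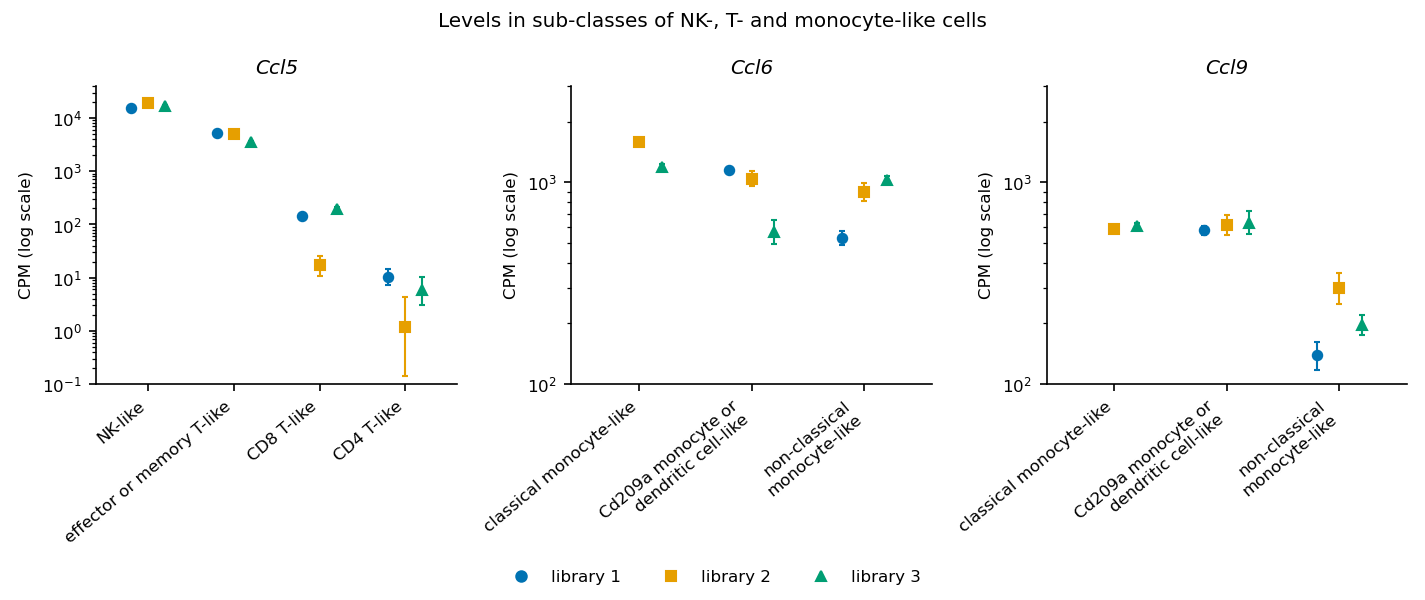
CPM (log axis) of Ccl5 in NK- and T-like sub-classes and of Ccl6 and Ccl9 in monocyte-like sub-classes, with 1 symbol per library of at least 20 cells and exact 95% Poisson intervals. Ccl5 steps down from NK-like to CD4 T-like cells in each library, and Ccl9 is lowest in non-classical monocyte-like cells at 139, 299.6 and 196 CPM.

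Ccl3 and Ccl4 were highest in NK-like cells as well, but in a minority of the cells. Ccl3 stood at 222 CPM (197 to 249.7), 76.2 CPM (50.2 to 111) and 130.4 CPM (106 to 158) in libraries 1, 2 and 3. For Ccl4 the levels were 689.8 CPM (645 to 737), 265 CPM (214 to 325) and 373 CPM (332 to 419). Library 1 was highest and library 2 lowest for both, by 2.92-fold (1.96 to 4.51) for Ccl3 and 2.60-fold (2.10 to 3.25) for Ccl4. A spread past its counting interval was found for 18.6% of 7904 genes in NK-like cells. NK-like cells were 4.31%, 1.42% and 2.80% of kept cells, the same order of libraries.

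A UMI of Ccl3 was found in 33.1%, 23.2% and 25% of NK-like cells, and of Ccl4 in 42.9%, 41.5% and 36.5%. In B-like cells the shares were at most 0.132% for Ccl3 and 0.440% for Ccl4. Single cells weighed on the sums: in library 1, 1 NK-like cell held 212 of 887 Ccl4 UMIs and 1 held 90 of 286 Ccl3 UMIs. Leaving out the cell with the most UMIs in each class and library kept NK-like cells in the lead for both genes. Their lowest lead over the next class was 9.34-fold for Ccl3 and 4.80-fold for Ccl4, and 4.12-fold and 1.81-fold under trimmed-mean scaling.

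Both genes tended to be found in the same NK-like cells. Ccl4 was found in 69.4%, 68.4% and 61.5% of NK-like cells with a Ccl3 UMI, and in 29.8%, 33.3% and 28.2% of those without. The intervals of the 2 shares did not overlap in libraries 1 (59.3 to 78.3 and 23.5 to 36.7) and 3 (44.6 to 76.6 and 20.3 to 37.3), and overlapped in library 2. After thinning each cell to 1000 UMIs they stayed apart in library 1, at 46.3% and 16.1%. In libraries 2 and 3, where 6 and 11 thinned cells held Ccl3, they overlapped.

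The balance of Ccl3 and Ccl4 was steady in NK-like cells and not in neutrophil-like cells. Ccl3 made up 24.4% (21.9 to 26.9), 22.3% (15.2 to 30.8) and 25.9% (21.6 to 30.5) of the summed Ccl3 and Ccl4 UMIs of NK-like cells. Of the neutrophil-like sum it made up 50.7% (38.7 to 62.6), 11.2% (9.0 to 13.8) and 4.67% (2.44 to 8.01). The neutrophil-like intervals overlapped neither each other nor those of NK-like cells in the same library. With the single richest cell for each gene left out, the neutrophil-like shares were 52.9%, 10.4% and 5.00%. UMIs are not scaled to gene length, so the share is read across classes and not as a level of Ccl3 against Ccl4.

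**Figure D3:**
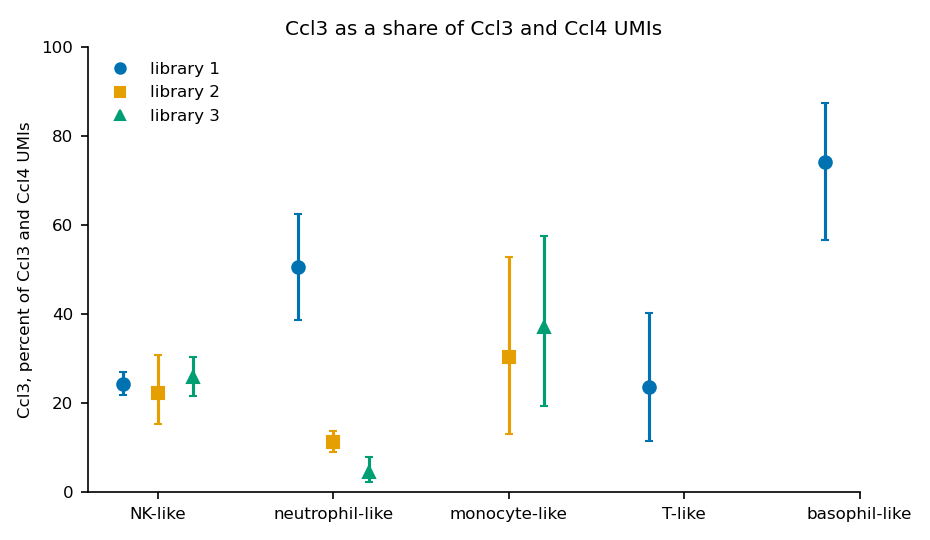
Ccl3 as a percentage of the summed Ccl3 and Ccl4 UMIs by cell class, with 1 symbol per library of at least 20 such UMIs and exact 95% binomial intervals. NK-like cells sit between 22.3% and 25.9% in the 3 libraries, and neutrophil-like cells run from 4.67% to 50.7%.

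Neutrophil-like cells were the class next to NK-like cells for Ccl4. They held it at 23.2 (16.2 to 32.1), 55.3 (51.1 to 59.8) and 22.0 CPM (19.3 to 24.9). Monocyte-, B- and T-like cells, each as a whole class, were at 3.76 CPM or lower in each library. The effector or memory T-like set stood higher, at 51.8, 18.1 and 9.31 CPM from 78, 6 and 6 UMIs. In library 1 that was above the neutrophil-like class, but without the richest cell 25 of the 78 UMIs remained. Ccl3 in neutrophil-like cells was 23.8 CPM in library 1, 6.99 in library 2 and 1.08 in library 3, a 22.1-fold range (11.3 to 46.6). The last of these overlapped the monocyte-like level (1.11, 1.57 and 1.65 CPM). A spread past its counting interval was common in this class, at 70.3% of 9334 genes.

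Markers of NK cells were low in the neutrophil-like class. The 14 NK markers summed to 23.2, 8.74 and 11 CPM there, with 4, 2 and 3 of them at 0, against 22563, 24199 and 21935 CPM in the NK-like class. The proportion of Ccl4 to Ccl5 UMIs differed between NK-like and neutrophil-like cells. In NK-like cells 19813 Ccl5 UMIs stood beside 887 of Ccl4 in library 1, 6855 beside 94 in library 2 and 13249 beside 292 in library 3. In neutrophil-like cells 20 Ccl5 UMIs stood beside 36 of Ccl4, 39 beside 633 and 103 beside 245. Whether free RNA or doublets of NK-like cells gave part of the Ccl4 in neutrophil-like cells was not tested.

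The class that held most of the Ccl4 message differed between libraries. NK-like cells held 86.5%, 12.3% and 51.8% of all Ccl4 UMIs in kept cells of libraries 1, 2 and 3, and neutrophil-like cells 3.51%, 83.0% and 43.4%. For Ccl3 the NK-like share was 74.1%, 23.5% and 79.7%, and the neutrophil-like share 9.59%, 69.6% and 9.38%. Library 2, with 82 NK-like and 3242 neutrophil-like cells, was the one in which neutrophil-like cells held most of both. Ccl5 came mostly from NK-like cells in each library, with 69.6%, 79.0% and 81.2% of its UMIs, and T-like cells gave 29.0%, 19.7% and 16.8%.

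**Figure D4:**
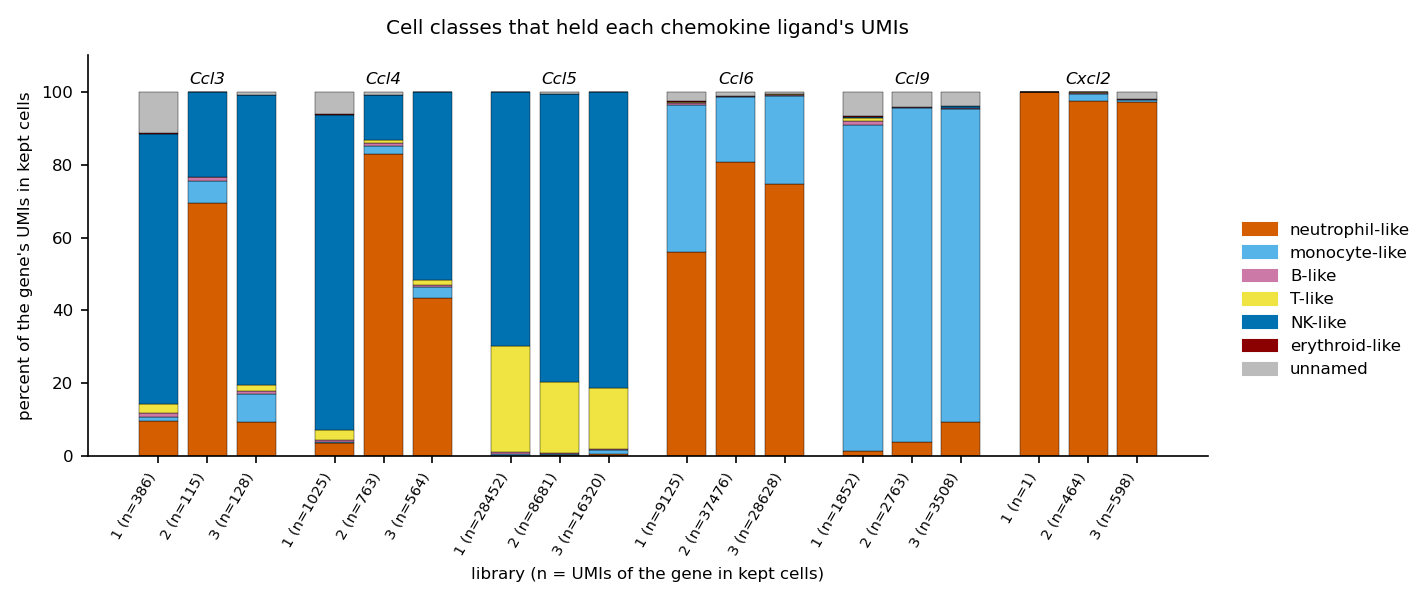
Percentage of each gene's UMIs found in each cell class, with 1 bar per library and the gene's UMIs in kept cells as n. Most Ccl4 UMIs lie in NK-like cells in library 1 (86.5%) and in neutrophil-like cells in library 2 (83.0%), while Ccl9 stays with monocyte-like cells in each library (85.9% to 91.6%).

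The neutrophil sub-classes below have fewer than 20 cells in library 1 and were chosen after their values were seen, so they are given for libraries 2 and 3. Mature neutrophil-like cells (clusters led by Fgl2 and by Clec4n) held Ccl4 at 100 and 40.2 CPM, and younger neutrophil-like cells (clusters led by Prok2 and by Stfa2) at 10.0 and 19.6 CPM. The name mature rested on Csf3r, Il1b and Fgl2 alone, a minority of its list. Jaml and Cd101 of that list were met by the Jaml-led cluster, and the Clec4n-led cluster also met Chil3 of the younger list. The mature cells were 9.98-fold (5.03 to 23.3) and 2.05-fold (1.41 to 2.92) higher. Ccl3 followed, with 68 UMIs in mature and 0 in younger cells of library 2. In library 3 it was 4.02 against 0.617 CPM, from only 4 and 5 UMIs (interval of the ratio 1.29 to 30.3). Ccl4 differed between the libraries inside some clusters and not in others. In the Fgl2-led cluster it was 110 CPM in library 2 and 30.1 in library 3, while in the Clec4n-led cluster it was 65.6 and 91.7 CPM, with an interval of the ratio that holds 1.

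Ccl6 was the broadest of the 6 genes across myeloid cells. Neutrophil-like cells held 3292 (3202 to 3383), 2644 (2615 to 2674) and 1919 CPM (1893 to 1945). Monocyte-like cells held 1024, 1506 and 1144 CPM. Neutrophil-like cells led 3.21-, 1.76- and 1.68-fold in CPM, but monocyte-like cells held more UMIs per cell in libraries 2 and 3 (16.2 and 13.4 against 9.33 and 10.8), and 9.10 against 9.44 in library 1. The direction of the lead thus depended on whether UMIs were divided by the total RNA of the class or by its cells, whose median depth was 8636, 10984.5 and 11782.5 UMIs in monocyte-like cells. B-, T-, NK- and erythroid-like cells were at 12.8 CPM or lower.

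A UMI of Ccl6 was found in 96.7%, 90.1% and 88.7% of neutrophil-like cells and in 94.3%, 97.8% and 95.7% of monocyte-like cells, beside 1.35%, 4.55% and 3.78% of B-like cells. Library 1 exceeded library 3 1.72-fold in neutrophil-like CPM, a direction that turned under trimmed-mean scaling and in UMIs per cell. Among neutrophil clusters, the Clec4n-led one stood low for Ccl6 at 961 and 911 CPM in libraries 2 and 3. The Fgl2-led one, which with it makes up the mature cells, stood at 2465 and 2594 CPM. The other clusters with at least 20 cells in both of those libraries ranged from 1200 CPM (Stfa2-led, library 3) to 3231 CPM (Mmp8-led, library 2).

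Ccl9 was concentrated in monocyte-like cells. They held 461 (439 to 484), 567 (545 to 589) and 497 CPM (479 to 515), and the highest library was 1.23 times the lowest (1.16 to 1.31). Neutrophil-like cells held 17.4, 9.44 and 29.6 CPM, so the lead was 26.5-, 60- and 16.8-fold. Under trimmed-mean scaling the lowest of these was 7.29-fold, and in UMIs per cell it was 35.2-fold. A UMI was found in 69.8%, 92.3% and 77.7% of monocyte-like cells and in at most 0.530% of B-like cells. In NK-like cells of library 3 the level was 24.3 CPM, of which 1 cell gave 15 of 19 UMIs.

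Within the monocyte-like class Ccl9 was lowest in non-classical cells, the patrolling type marked by Ace and Treml4. They held 139 (118 to 162), 299.6 (249.5 to 357) and 196 CPM (176 to 219). Cd209a monocyte or dendritic cell-like cells held 578, 614 and 632 CPM, which was 4.16-, 2.05- and 3.22-fold higher, each above 1 over its interval. Classical cells, marked by Ccr2 and Fn1, held 588 and 605 CPM in libraries 2 and 3 and numbered 8 in library 1. Classical and Cd209a cells differed by less than counting error in libraries 2 and 3, with ratios of 0.958 (0.848 to 1.08) and 0.957 (0.837 to 1.10). The 8 cells do not mean that library 1 lacked classical cells. At the coarser resolution that set the classes, a cluster led by Fn1, Chil3 and Ccr2 held 224 cells of library 1. The finer Cd209a cluster also had Fn1 and Ccr2 among its leading genes and met Ly6c2 of the classical list. Its library 1 values are thus not those of a type set apart from classical cells.

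Ccl6 did not keep that order. Cd209a cells exceeded non-classical cells in library 1 (1153 against 530 CPM) and library 2 (1043 against 899 CPM), and were lower in library 3 (570.3 against 1024 CPM). Classical cells exceeded both in libraries 2 and 3, at 1581 and 1197 CPM. The makeup moved with the library: Cd209a cells numbered 237, 45 and 45, of which 216, 26 and 27 lay in the monocyte-like class. In library 1 the Cd209a set was not separated from classical cells at the coarser resolution, so its Ccl6 value carries the same limit.

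Cxcl2 was a neutrophil-like message in libraries 2 and 3 and close to absent from the counts of library 1. Neutrophil-like cells held 452 UMIs (39.5 CPM, 35.9 to 43.3) in library 2 and 582 UMIs (52.2 CPM, 48.1 to 56.7) in library 3. In library 1 they held 1 UMI (0.644 CPM, 0.0163 to 3.59) over 1553535 UMIs. The ratio of library 3 to library 1 was 81.2 with an interval of 14.5 to 3211. Without the richest cell of each library, or with cells thinned to 1000 UMIs, library 1 held none, and against its 3-UMI floor library 3 was at least 25.6-fold and 10.8-fold higher. In the cells of the stricter filter, with the classes kept, the levels were 0.671, 39.9 and 52.5 CPM. Library 1 was lowest past its counting interval for 7.52% of 9334 genes in this class.

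Cxcl2 was found in 1 of 542 neutrophil-like cells in library 1, in 7.31% in library 2 and in 13.7% in library 3, beside 0%, 0.147% and 0.0525% of B-like cells. Monocyte-like cells held 0, 9 and 3 UMIs, and NK-like cells held none in any library, which allows up to 2.87, 10.4 and 4.72 CPM. Cells with a UMI held 1.91 and 2.14 UMIs on average in libraries 2 and 3, and the highest cells held 35 and 32. Neutrophil-like cells held 97.4% and 97.3% of all Cxcl2 UMIs of libraries 2 and 3. The upstream stretch with 2 NF-kappaB words, printed above, belongs to this gene, and a link of these words to its levels was not tested.

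Across neutrophil clusters of at least 20 cells, Cxcl2 was more even than Ccl4 in library 3 only, at 32.0 to 85.6 against 7.56 to 91.7 CPM. In library 2 Cxcl2 ran from 7.29 to 54.0 CPM. The ratio of mature to younger cells for Cxcl2 was 0.517 (0.359 to 0.757) in library 2 and 1.28 (0.962 to 1.68) in library 3. It stood at 54.0 and 51.0 CPM in the Mmp8-led cluster, at 53.5 and 51.6 in the Prok2-led one and at 31.3 and 56.6 in the Fgl2-led one, in libraries 2 and 3. The Clec4n-led cluster was low in library 2 at 7.29 CPM and stood at 85.6 CPM in library 3, where 1 cell held 8 of its 14 UMIs. In the Jaml-led cluster, which made up nearly all of library 1, 1 UMI was counted in 532 cells of library 1 and 1 in 30 cells of library 2. Its single cell of library 3 held 32 UMIs. The near absence in library 1 and its different neutrophil makeup cannot be told apart for clusters that library 1 lacked.

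**Figure D5:**
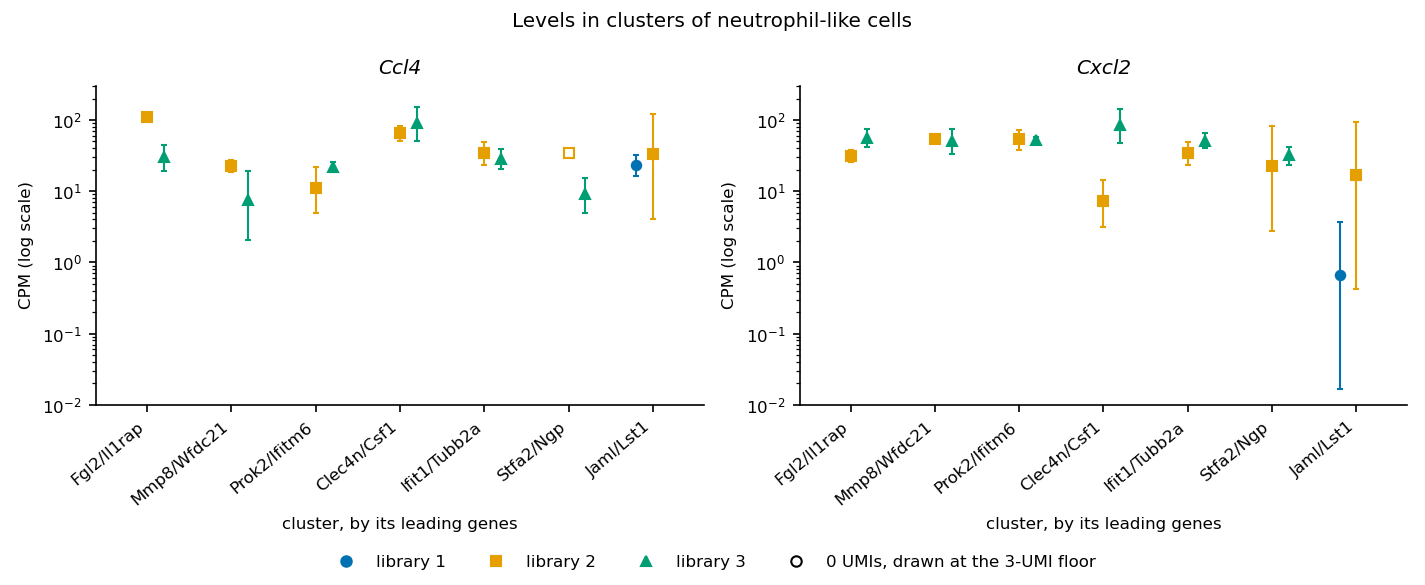
CPM (log axis) of Ccl4 and Cxcl2 in clusters of neutrophil-like cells, named by their leading genes, with 1 symbol per library of at least 20 cells, exact 95% Poisson intervals and open symbols at the 3-UMI floor. Ccl4 reaches 110 CPM in the Fgl2-led cluster of library 2, and Cxcl2 in the Jaml-led cluster of library 1 rests on 1 UMI.

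Ccl4 was found somewhat more often in neutrophil-like cells with Cxcl2 than in those without. The shares were in 8.86% (5.57 to 13.2) of cells with a Cxcl2 UMI and 7.32% (6.42 to 8.31) of cells without in library 2, and 8.09% (5.14 to 12) and 5.07% (4.08 to 6.22) in library 3. Each pair of intervals overlapped, the difference itself was not tested, and cells with Cxcl2 were deeper (median 3999 against 3170 UMIs and 6407 against 4957). Thinned to 1000 UMIs, the shares were 3.30% and 3.70% in library 2 and 2.56% and 1.57% in library 3, from 3 and 2 cells with both genes. Ccl4 with Ccl3 was another case. In library 2 it was found in 28.8% (17.1 to 43.1) of neutrophil-like cells with Ccl3 and 7.08% (6.22 to 8.03) of those without, at like depths of 3107 and 3221.5 UMIs. Thinned, those shares were 13.6% and 3.62% with overlapping intervals.

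A group of 7 cells, all in library 1, held UMIs of 4 of the 6 genes. They formed a basophil-like cluster under a stricter cell filter, each with UMIs of 7 to 11 of 12 basophil markers, among them Mcpt8, Ms4a2 and Gata2 in all 7 cells. Under the main filter they sat in an unnamed cluster led by Cd209a and Ikzf2, and at the finer resolution in the effector or memory T-like cluster. They were picked out after the data were seen. Ccl6 was at 7654 CPM (6537 to 8907) from 167 UMIs and Ccl9 at 3071 CPM (2380 to 3899.7) from 67 UMIs. Ccl3 was at 1192 CPM (778 to 1746) from 26 UMIs and Ccl4 at 412 CPM (189 to 783) from 9 UMIs, so that Ccl3 made up 74.3% (56.7 to 87.5) of the pair. Ccl6 was found in 7 of the 7 cells, Ccl3 in 6, Ccl9 in 5 and Ccl4 in 3. Single cells gave 29 of the Ccl9 and 6 of the Ccl4 UMIs. The Ccl4 interval held the level of NK-like cells of the same library (689.8 CPM). No UMI of Ccl5 or Cxcl2 was found in their 21819 UMIs, which allows up to 169 CPM.

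Other ligands were mostly scarce in these cells. Of 16 other CC ligands 3 held at least 20 UMIs, and 1 of them, Ccl2, had a leading class by the rule above: monocyte-like cells at 3.62, 15.7 and 7.42 CPM. The share with a leading class over all measured genes is 20.2%, so that 1 of 3 here and 1 of 8 below show nothing particular to these ligands. No UMI was counted for 6 of the 16. Of the 15 listed CXC, XC and CX3C ligands in the matrix, 8 were measured and Xcl1 alone passed, with NK-like cells at 300.2, 279 and 341 CPM and T-like cells at 8.82, 2.09 and 5.07. Cxcl3, a close paralogue of Cxcl2, held 0, 11 and 18 UMIs in neutrophil-like cells. The platelet genes Pf4 and Ppbp were in each class, and in neutrophil-like cells Pf4 stood at 4519, 1438 and 1212 CPM.

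Of 15 measured receptor genes, from a list chosen for their roles, 12 had a fixed leading class, beside 20.2% of all measured genes. Among the 12 are Cxcr2, Ccr2 and Cx3cr1, which are markers that named the classes. Their leads follow in part from the naming, so the 12 of 15 is not a result about receptors. Ccr1, the receptor of CCL6, CCL9, CCL3 and CCL5, was led by neutrophil-like cells at 820.1, 1105 and 755 CPM, above monocyte-like cells at 32.9, 261 and 142 CPM. Cxcr2, the CXCL2 receptor and one of the neutrophil markers, reached 1804, 2477 and 1598 CPM in the neutrophil-like class. In CPM library 1 thus held Cxcr2 within the range of the other libraries while holding 1 UMI of Cxcl2. In UMIs per cell and under trimmed-mean scaling the Cxcr2 level of library 1 was the lowest. Because Cxcr2 helped to name the class, its presence does not show that the cells of library 1 are otherwise alike.

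Among 12 genes of NF-kappaB and of message decay, 5 had a fixed leading class, beside 20.2% of all measured genes. Zfp36, whose protein speeds the decay of messages rich in A and U, was led by neutrophil-like cells at 475, 504 and 260.2 CPM. Nfkb1 was led by monocyte-like cells at 267, 175 and 191 CPM, and Nfkb2, Rel and Relb by B-like cells.

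Genes with the most similar profile were ranked by Pearson correlation of log2(CPM + 1) over 18 class and library points, among 10348 genes, as a description with no p. The points share libraries and classes, so a gene of 1 class scores high with any other of that class. For Ccl5 these were Klrd1 (0.989), Nkg7 (0.988), Il2rb, Enpp4 and Eomes, which include NK receptor, cytotoxic granule and transcription factor genes. Klrd1, Il2rb and Eomes are NK markers that helped to name the class, so their profiles follow in part from the naming. Ccl4 and Ccl3 shared Gpc1 (0.948 and 0.937) and Spry2 (0.941 and 0.916) in the first places. Ccl6 was followed by Wdfy3 (0.991), Pilrb1, Pilrb2, Il13ra1 and Clec5a, and Ccl9 by Ahr (0.955), Ang, Tmem106a, Dna2 and Lrmda. Cxcl2 was followed by Gpr27 (0.993), Snai1, Nos2, Sult6b2 and Lipg.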

How the data were processed

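Blood leukocytes were measured in 3 droplet libraries (10x Genomics, 3′ chemistry, per the labels). The deposited values are raw UMI counts per gene and cell barcode in 1 matrix, written by Cell Ranger 6.0.2 per the file headers. Tools listed in the submitters' processing notes are Seurat 3.0, R 4.0.2, Cell Ranger 4.0.0 and Trimmomatic 0.39, with the build GRCm38. The calling of cells from barcodes is not described in the sources used here. Libraries held 40807434, 30114546 and 36523283 UMIs.

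A cell needed 200 genes or more and a mitochondrial share of UMIs of 10% or less. Scrublet was run per library (scanpy 1.11.5). Its automatic thresholds (0.614, 0.309 and 0.222) differed and in library 1 marked almost no cell, so a score of 0.25 was used in each library and marked 3.62%, 3.40% and 3.58% of cells. Cells were clustered on 2000 variable genes without chemokine ligands (30 principal components, 15 neighbours, leidenalg 0.10.2 at resolution 1, and at resolution 2 for sub-classes). A cluster was named when at least 3 markers were each detected in 20% or more of the cluster and exceeded the median cluster by a log2 fold of 0.5 or more. Markers close to evenly spread over clusters were not used, and a cluster stayed unnamed where another type's markers outnumbered its own among the 10 leading genes. This scoring was set after the data were seen. Unnamed cells numbered 479, 86 and 129.

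UMIs were summed per class and library, with exact Poisson intervals for CPM, Clopper-Pearson intervals for shares and exact conditional intervals for ratios. A count of 0 was set against 3 UMIs. A gene was measured with at least 20 UMIs. A leading class was fixed when it was the same in 3 libraries with each ratio to the next class above 1 over its interval. In simulated data for this rule (13186 genes) 60% of 4-fold and 27% of 2-fold leads were recovered, and 0% of flat genes were called. The simulated counts held counting error only, with no spread between libraries, so the 0% is not the rate of false calls in the measured data. Named were the 6 members, listed genes with a fixed leading class, the highest first, and the 5 most similar genes by Pearson correlation among genes with at least 100 UMIs. Members, lists and markers were chosen with earlier results of these data known. Sub-classes named by the rule have at least 20 cells in each library, and exceptions are marked. Alternatives were a stricter cell filter, doublets kept, chemokine genes used to cluster, another resolution, trimmed-mean scaling (TMM, edgeR 4.0.16), other minimums, the top cell left out and cells thinned to 1000 UMIs. UMIs per cell, leaving out basophil-like cells and the stricter filter's cells with the classes kept were added after the data were seen. The values of 1 listed receptor gene are not reported here.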

Additional observations from a re-analysis of the deposited data

How the results depend on the processing

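No paired analysis was possible because each group has 1 library and the libraries could not be tied to groups. Of 169 results recomputed under other settings, 159 kept their direction and stayed on the same side of the interval rule (ratios), within 1.5 times (counts) or inside the counting interval (shares of cells). Size could still move: of 118 recomputed ratios 17 moved by over 1.5 times, 14 of them with direction and side kept. The lowest lead of NK-like cells for Ccl5 fell from 14.4- to 6.58-fold under the stricter filter and to 6.33-fold with its cells and the classes kept. TMM gave a lowest lead of 3.59-fold for Ccl6 (1.68-fold in CPM) and 40.1-fold for Cxcl2 (19.6-fold), which was 32.5-fold without the richest cells and 6.44-fold in UMIs per cell. Library 3 exceeded library 1 for Cxcl2 157-fold under TMM and 159-fold in UMIs per cell. Genes with a fixed leading class numbered 2659, 1506 under the stricter filter (500 genes, 5% mitochondrial UMIs) and 4957 with UMIs per cell in place of CPM. With UMIs per cell the lowest log2 lead of neutrophil-like cells for Ccl6 turned from 0.75 to -0.79, so that 4 of 6 members kept a fixed leading class. The log2 ratio of library 1 to library 3 for Ccl6 in neutrophil-like cells turned from 0.78 to -0.17 under TMM and -0.19 with UMIs per cell. TMM moved log2 values in neutrophil-like cells by -0.27, 0.52 and 0.68 in libraries 1, 2 and 3. Thinning to 1000 UMIs lowered the share of cells with a UMI: Ccl3 in NK-like cells of library 3 from 25% to 7.10%, Ccl4 in NK-like cells of library 2 from 41.5% to 15.9%, Ccl6 in neutrophil-like cells of library 2 from 90.1% to 78.0%, Ccl9 in monocyte-like cells of library 3 from 77.7% to 31.8%, and Cxcl2 in neutrophil-like cells of library 2 from 7.31% to 2.92%. Fewer UMIs per cell lower such shares by construction. Under the stricter filter most neutrophil-like cells of library 1 were kept but left unnamed, in clusters where platelet markers outnumbered neutrophil markers among the leading genes, so that no value of Ccl6 and Cxcl2 was given there. Counting intervals leave out differences between mice, so no spread between libraries is a difference between groups.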
